A study of Mus musculus with 3 samples.

Results

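The naming rule took 63 of the 24421 genes of the table: every gene symbol of the Slc1a, Slc3a, Slc6a, Slc7a, Slc36a, Slc38a and Slc43a families, without Slc7a11. Of these, 60 are transporter genes or their heavy chains and 3 (Slc7a6os, Slc36a1os and Slc6a19os) are opposite-strand genes that the symbol brings in. The RNA came from JB6 P+, an established mouse cell line labelled as skin epithelial cells, in which tumour promoters cause transformation. There were 3 libraries with 1 library per group: a control, cells given 10 ng/mL of the phorbol ester TPA, and cells given 10 ng/mL TPA with 50 nM of the synthetic triterpenoid CDDO. The agents were added on alternate days, for 5 days in all, with serum at 1%. The serum, vehicle and time of the control are not given in the sources used here, so their part in a difference from control cannot be told apart from that of the agents. With no replicate there is no test against the spread between cultures, no p-value is given, and every interval below covers counting error only.

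The libraries held between 7813035 and 8190078 reads assigned to genes. Levels are given as CPM, the reads of a gene scaled to library size with TMM factors, in the order control, TPA, CDDO+TPA, and levels of different genes are compared as CPM per kilobase of exon. In bulk RNA, fewer cells of a type and less RNA per cell cannot be told apart. The labelled cell type was not borne out by its defining markers: 3 of 9 keratinocyte markers reached 1 CPM, and Krt5, Krt1 and Epcam had 0 reads in every library, against a floor of 3 counts or 0.374 to 0.380 CPM. All 7 mesenchymal markers were measured, with summed levels of 3191, 2086 and 2535 CPM. Fn1 held much of that sum, with 1519, 1087 and 1391 CPM. The members differed in direction: Vim had 268, 369 and 356 CPM, Col1a1 529, 152 and 267, and Pdgfrb 86.6, 81.5 and 26.1. Only 0 of 5 leukocyte markers and 1 of 4 endothelial markers reached 1 CPM. The keratinocyte list summed to 16.97, 33.8 and 11.2 CPM, but its members did not move together: Itgb4 had 2.87, 23.2 and 3.29 CPM and Krt10 had 13.0, 9.16 and 6.59 CPM. The part of these marker differences in the transporter values was not tested.

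Amino acids cross membranes through carriers of several unrelated families. SLC7 proteins include the cationic amino acid transporters, which work alone, and light chains that reach the plasma membrane only when joined to a heavy chain of the SLC3 family, SLC3A2 (4F2hc) or SLC3A1 (rBAT). SLC1 carriers move glutamate or exchange small neutral amino acids and glutamine, and SLC38 carriers are sodium-coupled neutral amino acid transporters. Some SLC36 carriers are coupled to protons, SLC38A9 acts at lysosomes, and SLC43 carriers facilitate diffusion. The SLC6 family also moves neurotransmitters, taurine, betaine and creatine. In dividing cells these carriers supply leucine, arginine and glutamine to protein synthesis and to the kinase complex mTORC1, and several of their genes are targets of the stress factor ATF4.

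Of the 63 genes, 34 had at least 1 CPM in at least 1 library and are called measured here; 33 of these are transporter genes and the other is Slc7a6os. A further 18 had reads but never more than 7 in a library, and 11 had none. The measured genes spanned a wide range, and most of the reads lay in few of them: the 15 with a mean of at least 100 CPM held 95.4%, 93.3% and 93.9% of all reads of the 63. All reads of the 63 numbered 37716, 30782 and 28306, which was 0.461%, 0.394% and 0.360% of each library.

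Slc38a2, the sodium-coupled glutamine and alanine carrier SNAT2, had the highest level per kilobase in each library, at 137, 132 and 101 CPM per kilobase. Behind it the order differed between libraries. In control, Slc1a5 (109 CPM per kilobase), Slc7a5 (106), Slc7a1 (105) and Slc3a2 (103) had counting intervals that overlapped between neighbours, and Slc6a9 (92.1) and Slc6a8 (91.1) did likewise. In the TPA library Slc3a2 held the second place at 105 CPM per kilobase, ahead of Slc6a8 at 72.6, while Slc1a5, Slc6a9, Slc7a1 and Slc7a5 lay between 60.8 and 68.8. In the CDDO+TPA library Slc6a8 and Slc3a2 stood at 82.4 and 81.9 CPM per kilobase and did not differ beyond counting error.

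**Figure D1:**
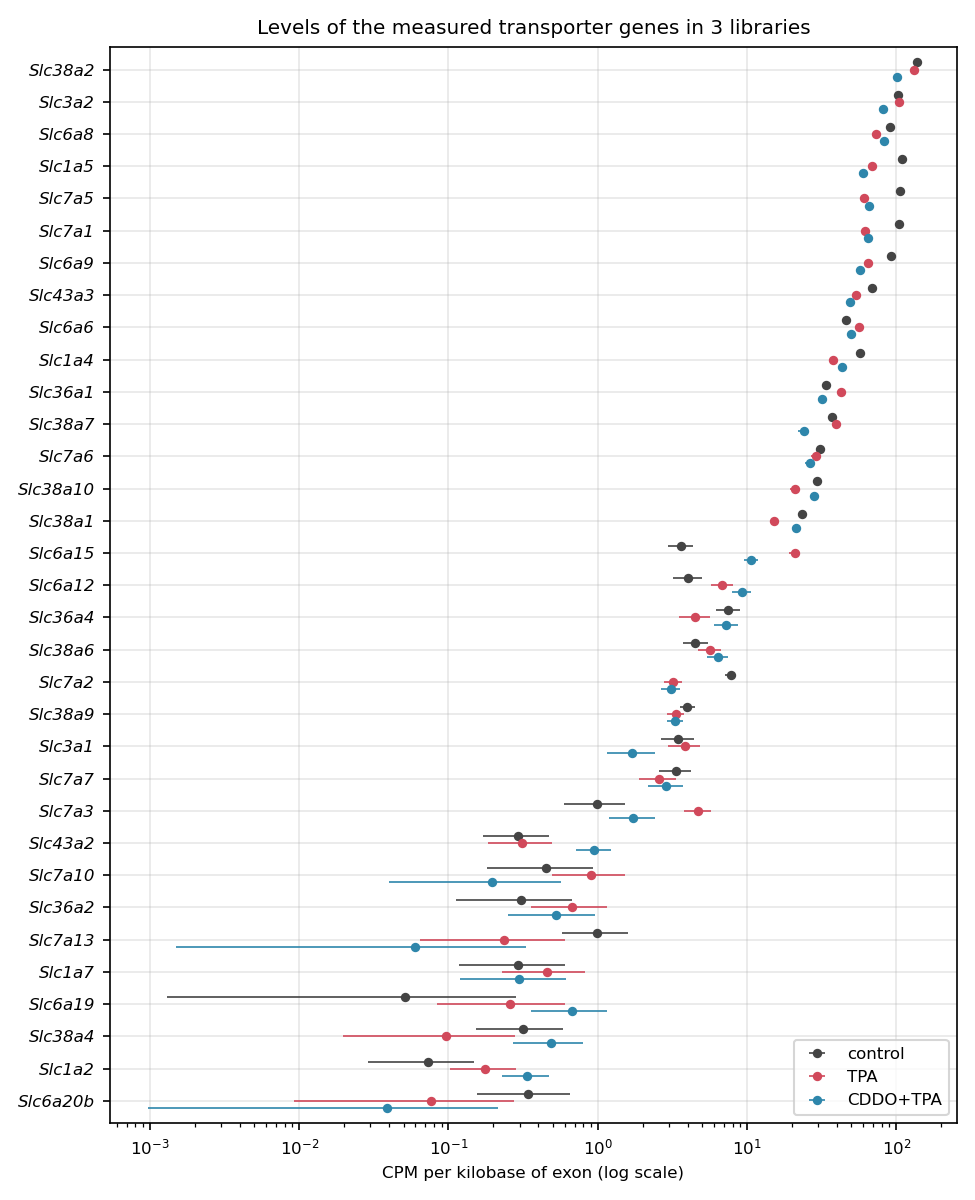
Levels of the 33 measured transporter genes, in CPM per kilobase of exon on a log axis, ordered by their mean over the 3 libraries; points are single libraries and lines are 95% exact Poisson intervals. Slc38a2 is at the top in each library, and Slc7a5, Slc7a1 and Slc1a5 sit apart from their control points in both treated libraries.

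The size rule used here asks for a log2 fold change of 1 or more, up or down, together with a 95% counting interval that leaves out a ratio of 1. In TPA against control, 2 measured genes were higher (Slc6a15 and Slc7a3) and 2 lower (Slc7a2 and Slc7a13), where 9.57% of the 13100 genes measured in the whole table were higher and 5.91% lower. In CDDO+TPA against TPA, 2 were higher (Slc43a2 and Slc38a4) and 3 lower (Slc7a3, Slc3a1 and Slc7a10), beside 7.87% and 7.78% of all genes. In CDDO+TPA against control, 5 were higher (Slc6a15, Slc6a12, Slc43a2, Slc1a2 and Slc6a19) and 3 lower (Slc7a2, Slc7a13 and Slc6a20b), beside 8.02% and 3.37%. The median log2 fold changes of the 34 genes were -0.08, -0.12 and -0.17 in these comparisons, beside 0, 0.01 and -0.02 over all genes measured. The first of these medians was -0.02 under total-count scaling and under upper-quartile scaling alike. The comparisons share libraries and are not independent of each other.

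Of the 12 genes past the rule in some comparison, 0 were among the 15 abundant ones. Over the 3592 genes of the table with a mean of at least 100 CPM, the rule took 1.09% higher and 2.39% lower in TPA against control. It took 1.73% and 0.612% between CDDO+TPA and TPA, and 1.14% and 0.501% in CDDO+TPA against control. Of the 12, 6 reached 5 CPM in some library, and the other 6 stayed below it. The abundant genes differed by less. At a 1.5-fold difference, chosen as an alternative to the size rule, 8 of the 34 genes were lower and 3 higher in TPA against control, beside 13.7% and 15.5% of all genes. In CDDO+TPA against TPA 5 were lower and 4 higher, beside 12.8% and 15.3%, and in CDDO+TPA against control 9 were lower and 5 higher, beside 8.7% and 13.4%. Among genes with a mean of at least 100 CPM, a limit set after these values were seen, 5 of 15 transporter genes were lower by at least 1.5-fold and 0 higher in TPA against control, beside 9.49% lower and 5.54% higher of all genes at that level. These 5 were Slc7a1, Slc7a5, Slc1a5, Slc1a4 and Slc38a1. In CDDO+TPA against control the count was again 5 of 15 lower and 0 higher, beside 4.65% and 4.29%, with Slc38a7 and Slc6a9 in place of Slc1a4 and Slc38a1. In CDDO+TPA against TPA Slc38a7 was lower, 1 of 15, beside 4.45%, and 0 were higher, beside 6.9%. The median log2 fold changes of the 15 were -0.35, -0.13 and -0.40, beside -0.05, -0.01 and -0.06 over all genes at that level. In TPA against control 11 of the 15 were below 0, Slc38a2 among them by a margin whose sign turned under total-count and upper-quartile scaling, and in CDDO+TPA against control 14 of 15 were. The share of all genes at that level below 0 is not given, so whether these counts differ from it cannot be told.

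**Figure D2:**
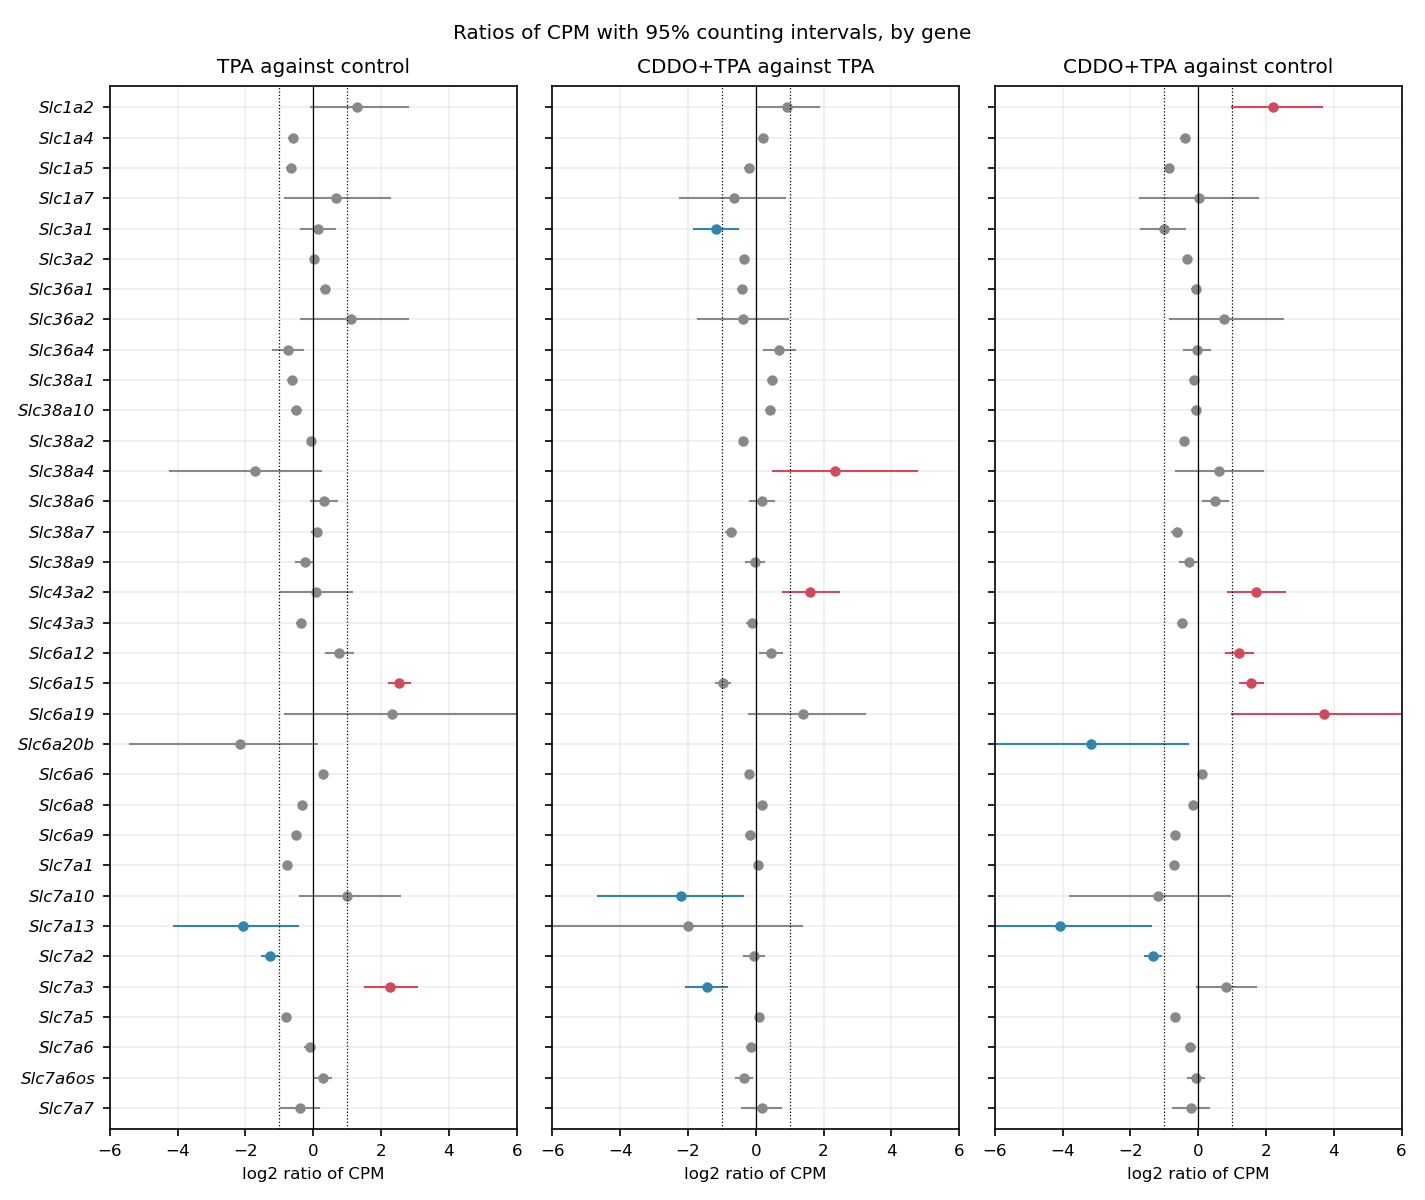
Log2 ratios of CPM for the 34 measured genes in the 3 comparisons, with 95% counting intervals (lines, ended at the edge of the panel where they run on); red and blue mark genes past the size rule upward and downward, grey the others, and dotted lines stand at a log2 ratio of 1 in size. Slc6a20b has no point in the middle panel, where it had 2 and 1 reads. Points hold no prior count, while the size rule does, so Slc3a1 in the right panel lies past the dotted line but is grey. The narrow grey points left of 0 in the left panel include Slc7a1, Slc7a5 and Slc1a5.

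Cationic amino acid carriers, which bring in arginine, lysine and ornithine, were lower in sum in both treated libraries, with 6600, 3823 and 3894 reads. The sum stood at 0.583 of control in the TPA library (95% counting interval 0.560 to 0.606) and at 0.599 (0.576 to 0.623) in the CDDO+TPA library. Most of it was Slc7a1 (CAT1), the housekeeping carrier, which made up 92.3%, 88.6% and 93.0% of the class per kilobase. Slc7a1 had 760.3, 444 and 465 CPM. It was 1.71-fold lower in the TPA library (1.64 to 1.79) and 1.63-fold lower in the CDDO+TPA library (1.57 to 1.70) than in control, both below the size rule, and the treated libraries differed from each other by 1.05-fold.

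The other members of the class differed in opposite directions. Slc7a2 (CAT2), which also supplies arginine in immune-activated cells and lies on mm10 chromosome 8, 40862367 to 40922070, plus strand, had 489, 200 and 191 reads, or 61.0, 25.1 and 24.2 CPM. Control was the high library, with the treated libraries near each other: Slc7a2 was 2.43-fold lower with TPA (2.06 to 2.88) and 2.52-fold lower with CDDO+TPA (2.13 to 3.00). Slc7a3 (CAT3), a cationic carrier best known from brain, lies on chromosome X, 101079210 to 101085405, minus strand, and had 19, 90 and 33 reads, or 2.37, 11.3 and 4.18 CPM. Its TPA library was the high one, 4.77-fold above control (2.88 to 8.28), and its level was 2.70-fold lower when CDDO was added (1.80 to 4.16). CDDO+TPA and control did not differ beyond counting error for Slc7a3, with a ratio of 1.76 (0.974 to 3.28). Its share of the class per kilobase was 0.863%, 6.76% and 2.51%.

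The bases before the start of Slc7a1, the abundant member of the class, and of Slc3a1 are shown. Each holds a match to an AP-1 element, the site of the factors that phorbol esters activate. Slc3a1 was past the size rule only in CDDO+TPA against TPA. Between TPA and control it did not differ beyond counting error (ratio 1.10, 0.773 to 1.57). Slc6a12, past the rule in CDDO+TPA against control, also holds a match, in the window chr6:121342324-121342573, and is not shown. The windows of its other RefSeq starts hold no match. The windows shown are the 250 bases upstream of a RefSeq start on GRCm38.p6. They are chr5:148399905-148400154, minus strand, and chr17:85028097-85028346, plus strand, and lie in no exon of the GENCODE annotation. Slc7a1 has another start in the table, whose window, chr5:148392816-148393065, holds no match and is not shown. Capitals mark matches, searched on both strands, to TGANTCA (AP-1 element), TGACNNNGC (core of the antioxidant response element, the NRF2 site) and TGATGNAA (C/EBP-ATF response element of amino acid response genes).
Slc7a1: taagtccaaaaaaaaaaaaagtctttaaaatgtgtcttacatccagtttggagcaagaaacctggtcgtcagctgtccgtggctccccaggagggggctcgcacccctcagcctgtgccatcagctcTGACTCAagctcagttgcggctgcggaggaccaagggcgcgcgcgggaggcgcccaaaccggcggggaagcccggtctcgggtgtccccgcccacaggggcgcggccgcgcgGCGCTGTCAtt
Slc3a1: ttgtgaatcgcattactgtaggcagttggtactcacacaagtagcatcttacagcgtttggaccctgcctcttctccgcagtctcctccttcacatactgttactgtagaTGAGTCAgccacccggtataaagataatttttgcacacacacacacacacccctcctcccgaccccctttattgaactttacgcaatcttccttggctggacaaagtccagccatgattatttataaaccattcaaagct
The Slc7a1 window shown holds TGANTCA beginning 123 bases before the start and TGACNNNGC, on the other strand, beginning 11 bases before it, and the Slc3a1 window holds TGANTCA beginning 140 bases before the start. Over all 32851 promoters of the RefSeq table, 6.75% held TGANTCA, 10.2% TGACNNNGC and 3.45% TGATGNAA. The table matched 23 of the 34 measured genes with 38 promoters, of which 5 held TGANTCA, 5 TGACNNNGC and 2 TGATGNAA. The other measured genes had no promoter in it and were not searched. They were Slc1a5, Slc36a2, Slc38a1, Slc43a3, Slc6a6, Slc6a8, Slc6a15, Slc7a2, Slc7a3, Slc7a5 and Slc7a13. The genes with TGANTCA were Slc38a10, Slc38a7, Slc3a1, Slc6a12 and Slc7a1, those with TGACNNNGC were Slc38a2, Slc6a9, Slc7a1 and Slc7a6, and TGATGNAA was in Slc7a7. These are matches of letters in a short window, not measured binding.

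Carriers of small neutral amino acids were lower in sum as well, with 4226, 2699 and 2649 reads, or 0.642 of control with TPA (0.612 to 0.674) and 0.636 with CDDO+TPA (0.606 to 0.668). Slc1a5 (ASCT2), which exchanges glutamine for other neutral amino acids, had 302, 189.8 and 165 CPM. Control was its high library, 1.59-fold above TPA (1.49 to 1.69) and 1.82-fold above CDDO+TPA (1.71 to 1.95). Slc1a4 (ASCT1), the alanine, serine, cysteine and threonine exchanger, had 225, 147 and 170.0 CPM. It was 1.53-fold lower with TPA (1.42 to 1.65), and in the CDDO+TPA library it lay between the other two. Slc7a10 (Asc-1), a light chain for small neutral and D-amino acids, had only 7, 14 and 3 reads; it was 4.62-fold lower in CDDO+TPA than in TPA (1.29 to 25.1), and 12.0% of its exonic bases are shared with Lrp3 on the other strand, so its reads are uncertain.

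System L carriers move leucine, isoleucine, phenylalanine and other large neutral amino acids. Slc7a5 (LAT1) made up 99.4%, 99.1% and 98.6% of this class per kilobase and had 2986, 1700 and 1817 reads, or 373, 213 and 230.2 CPM. The control library was again the high one, and Slc7a5 was 1.75-fold lower with TPA (1.64 to 1.85) and 1.62-fold lower with CDDO+TPA (1.53 to 1.72). Slc43a2 (LAT4), a facilitator of branched-chain amino acids, phenylalanine and methionine that lies on chromosome 11, 75531694 to 75577572, plus strand, had 17, 18 and 54 reads. The CDDO+TPA library stood alone for it, 3.03-fold above TPA (1.75 to 5.49) and 3.23-fold above control (1.84 to 5.93). Its level in that library was 0.946 CPM per kilobase, against 65.5 for Slc7a5. The other system L genes had 7, 4 and 0 reads (Slc7a8) and 3, 2 and 0 reads (Slc43a1).

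Slc3a2, the heavy chain that Slc7a5 needs, had another pattern than this light chain. It had 303, 310.0 and 242 CPM, so that TPA and control did not differ beyond counting error (ratio 1.02, 0.966 to 1.08) and the CDDO+TPA library was 1.28-fold below TPA (1.21 to 1.36). Slc7a6 (y+LAT2), a light chain that exchanges arginine for glutamine and sodium, had 116, 108 and 98.6 CPM, and its relative Slc7a7 had 67, 51 and 57 reads, with 9.10% of its exonic bases shared with Oxa1l on the other strand. Summed per kilobase, the light chain genes Slc7a5, Slc7a6, Slc7a7, Slc7a8 and Slc7a10 came to 141, 93.2 and 95.04 CPM per kilobase, which was 1.38, 0.889 and 1.16 times the level of Slc3a2. With Slc7a11, the cystine light chain that the naming rule leaves out (1035, 618 and 2004 reads), the ratio to Slc3a2 was 1.51, 0.969 and 1.497. Light chain transcripts stood above those of the heavy chain in the control and CDDO+TPA libraries and near them in the TPA library. Slc7a13, a light chain for acidic amino acids, had 17, 4 and 1 reads, 4.22-fold lower with TPA than in control (1.38 to 17.3) and 16.7-fold lower with CDDO+TPA (2.62 to 699.7).

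**Figure D3:**
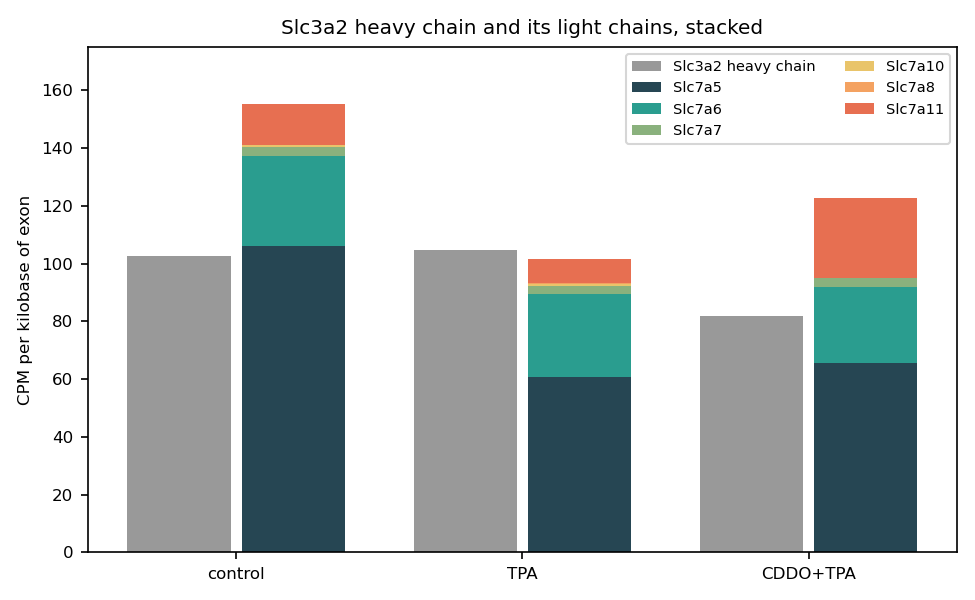
Level of the heavy chain gene Slc3a2 (grey) beside the stacked levels of its light chain genes, in CPM per kilobase of exon, in 1 library per group. The Slc7a5 block is tallest in control at 106, and the Slc7a11 block is tallest with CDDO+TPA at 27.5.

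Slc3a1, the heavy chain of the renal and intestinal b0,+ system, had 64, 70 and 31 reads, or 7.99, 8.79 and 3.93 CPM. CDDO+TPA was its low library, 2.24-fold below TPA (1.45 to 3.53) and 2.03-fold below control (1.30 to 3.23). The latter fell short of the rule, with a log2 fold change of -0.98 under the prior count of 2. With a prior count of 0.5 it passed. Reads of Slc3a1 are uncertain because 606 of its exonic bases, 26.3%, are shared with Prepl on the other strand and the counting command names no strand. Its usual partner Slc7a9 had 2, 2 and 0 reads.

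In TPA against control the largest fold among the measured genes was in the SLC6 family. Slc6a15 (SBAT1, also B0AT2), a sodium-coupled carrier of proline and branched-chain amino acids known mainly from neurons, lies on chromosome 10, 103367808 to 103419379, plus strand. It had 105, 604 and 306 reads, or 13.1, 75.8 and 38.8 CPM. TPA was the high library, 5.79-fold above control (4.70 to 7.19), and CDDO+TPA lay between, 1.956-fold below TPA (1.70 to 2.25) and 2.96-fold above control (2.36 to 3.73). The step from TPA to CDDO+TPA had a log2 fold change of -0.96, just under the size rule. Its level per kilobase, 3.60, 20.8 and 10.6, passed that of Slc38a1 in the TPA library (15.1) but in neither of the others. Slc6a19 (B0AT1), its relative from kidney and intestine, had 1, 5 and 13 reads, 13.2-fold higher in CDDO+TPA than in control (1.98 to 561).

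Carriers of taurine, creatine and betaine, which cells use as osmolytes or in energy storage rather than for protein, did not share the lower sums. The class had 5255, 5213 and 5186 reads, with ratios to control of 0.998 with TPA (0.960 to 1.04) and 1.00 with CDDO+TPA (0.964 to 1.04). Within it the members differed. The creatine carrier Slc6a8 had 363, 289 and 328 CPM, low with TPA by 1.26-fold (1.19 to 1.33), and the taurine carrier Slc6a6 had 283, 348 and 305 CPM, high with TPA by 1.23-fold (1.16 to 1.30). Slc6a12 (BGT1), which takes up betaine and GABA, had 82, 139 and 187 reads, in the order control, TPA, CDDO+TPA from low to high; it was 1.71-fold above control with TPA (1.29 to 2.27) and 2.32-fold with CDDO+TPA (1.78 to 3.04), and the second of these passed the size rule. Slc6a9 (GlyT1), the glycine carrier, had 301, 213 and 188 CPM, with control the high library, 1.42-fold above TPA (1.33 to 1.51) and 1.60-fold above CDDO+TPA (1.502 to 1.71). Among neurotransmitter carriers, Slc6a2, Slc6a3, Slc6a4, Slc6a5, Slc6a11 and Slc6a13 had at most 3 reads in a library.

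**Figure D4:**
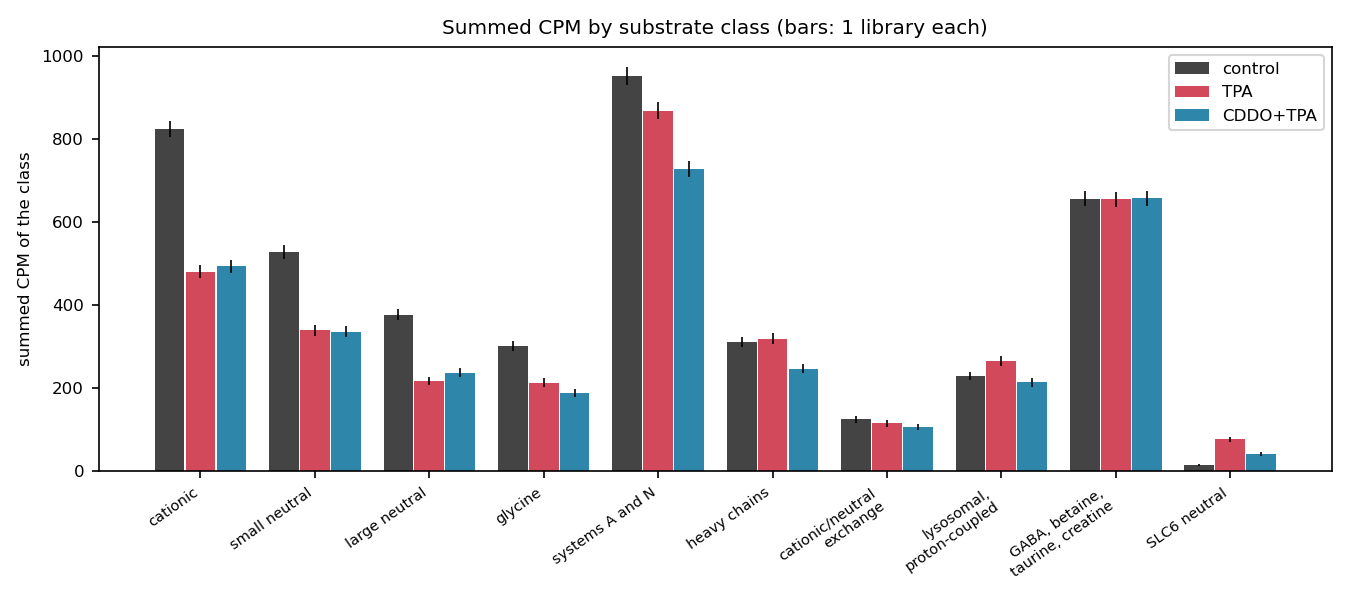
Summed CPM of substrate classes in the 3 libraries, with 95% counting intervals by the normal approximation. Classes are to be compared across libraries and not with each other, since gene lengths differ. The acidic, proline, monoamine and opposite-strand classes are not drawn. Nor are genes of other or unassigned substrate, which summed to 350, 270 and 300 CPM in control, TPA and CDDO+TPA. The cationic, small neutral and large neutral classes are tallest in control, and the class with taurine and creatine carriers lies between 654 and 657 CPM.

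Sodium-coupled carriers of systems A and N take up glutamine, alanine and other short neutral amino acids. The class had 7621, 6909 and 5742 reads, so that it was lowest with CDDO+TPA, at 0.839 of TPA (0.810 to 0.869) and 0.765 of control (0.739 to 0.792). That sum includes the lysosomal carrier gene Slc38a7, with 971, 1033 and 620 reads, so it is not one of uptake carriers alone. Slc38a2 had 634, 610.4 and 469.6 CPM, with control and TPA within 1.04-fold of each other (0.998 to 1.08), and was 1.30-fold lower in CDDO+TPA than in TPA (1.25 to 1.36). Slc38a1 (SNAT1), its relative, had 195, 127 and 178 CPM and so was low in the TPA library alone, 1.53-fold below control (1.42 to 1.66), with CDDO+TPA 1.40-fold above TPA (1.29 to 1.52). Slc38a7 (SNAT7), a lysosomal glutamine exporter, had 121, 129.7 and 78.6 CPM, low with CDDO+TPA, 1.65-fold below TPA (1.49 to 1.83). Slc38a4, a system A carrier of liver, had 10, 3 and 15 reads, and its 5.05-fold difference between CDDO+TPA and TPA (1.43 to 27.2) rests on those 3 reads. Slc38a3 and Slc38a5, the system N genes, had 0 reads in every library, at most 0.380 CPM by the floor of 3 counts.

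No carrier gene grouped here as lysosomal or proton-coupled passed the size rule in any of the 3 comparisons. Slc36a1 (PAT1), an exporter of small amino acids from lysosomes, had 178, 225 and 169 CPM, high with TPA by 1.26-fold over control (1.18 to 1.36) and 1.33-fold over CDDO+TPA (1.24 to 1.43). Slc36a4 (PAT4), of high affinity for proline and tryptophan, went the other way, with 116, 69 and 111 reads, low with TPA by 1.67-fold (1.23 to 2.29). Slc38a9, the lysosomal arginine sensor of mTORC1, had 285, 237 and 232 reads, all 3 libraries lying within 1.21-fold of each other. Slc43a3, a purine base carrier placed in this family by sequence, had 178, 139 and 128 CPM, and Slc38a10, whose role is less clear, had 159, 113 and 151 CPM.

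Acidic amino acid carriers of the SLC1 family, which clear glutamate around neurons, had few reads. Slc1a2 (GLT-1) had 7, 17 and 32 reads, 4.64-fold higher with CDDO+TPA than in control (2.01 to 12.5), and Slc1a7, Slc1a1, Slc1a3 and Slc1a6 had at most 11 in a library. Slc6a20b, a relative of the proline carrier gene Slc6a20a, had 9, 2 and 1 reads, 8.86-fold lower with CDDO+TPA than in control (1.23 to 389). Slc7a6os, the measured opposite-strand gene, had 297, 359 and 281 reads and shares no exonic base with another gene of the table.

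Genes of amino acid supply other than carriers were taken as lists, each to be read against all genes measured, with their medians of 0, 0.01 and -0.02. Of 17 measured genes of the ATF4 and amino acid response, 0 were higher and 2 lower in TPA against control, beside 9.57% and 5.91% of all genes, with medians of -0.03 there, -0.26 in CDDO+TPA against TPA and -0.46 in CDDO+TPA against control. In that comparison 16 of 17 had log2 fold changes below 0, where the median of all genes was -0.02. The share of all genes below 0 is not given. Of the 17, 1 was lower past the size rule, beside 3.37% of all genes. In CDDO+TPA against TPA 1 was lower, beside 7.78%. Most of the list had a mean of at least 100 CPM, where the shares of all genes past the rule were smaller. At that level 1.09% were higher and 2.39% lower in TPA against control. The shares lower there were 0.612% in CDDO+TPA against TPA and 0.501% in CDDO+TPA against control. The members past the rule with at least 10 CPM were Stc2, a secreted glycoprotein induced by stress (80.1, 23.4 and 42.3 CPM), the lipoprotein receptor gene Vldlr (276, 92.8 and 176 CPM), the stress factor gene Atf3 (158, 101 and 64.7 CPM) and Ddit4, an mTORC1 inhibitor (98.7, 150.4 and 63.4 CPM). All 20 cytosolic aminoacyl-tRNA synthetase genes, which charge tRNAs with amino acids, stayed below the rule in all 3 comparisons, with medians of -0.19, 0.05 and -0.22. Most of the 20 had a mean of at least 100 CPM. Among all genes at that level between 0.501% and 2.39% passed it in a direction, so that 0 of 20 is near that share. Among 15 genes of serine, glycine, proline and asparagine synthesis, 2 were lower with TPA and 0 higher, beside 5.91% and 9.57% of all genes: Pycr1, the last enzyme of proline synthesis (72.1, 28.0 and 37.3 CPM), and the aspartate aminotransferase gene Got1 (201, 99.6 and 130 CPM). Most genes of that list also had a mean of at least 100 CPM, where 2.39% were lower and 1.09% higher with TPA. The medians of that list were -0.14, -0.04 and -0.12.

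Of 23 measured genes of mTORC1 and amino acid sensing, 2 were higher with TPA than in control and 3 with CDDO+TPA than in control, and 0 were lower in any of the 3 comparisons. Over all genes, 9.57% were higher with TPA and 8.02% with CDDO+TPA than in control, so the count with TPA is near that share. The shares lower were 5.91% in TPA against control, 7.78% in CDDO+TPA against TPA and 3.37% in CDDO+TPA against control. A count of 0 of 23 is not far from these. Sesn3, a sestrin (leucine sensors belong to this family), had 27, 72 and 141 reads, 5.30-fold higher with CDDO+TPA than in control (3.49 to 8.33). Gatsl3 (Castor1), the cytosolic arginine sensor, had 60, 135 and 141 reads, and its relative Gatsl2 (Castor2) had 141, 255 and 347. For each of the 3 genes control was the low library. The medians of the list were 0.05, -0.05 and -0.0047.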

How the data were processed

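Per the file headers, the deposited table holds raw read counts that featureCounts 1.5.3 assigned to genes of the UCSC mm10 annotation from primary alignments, with no strand option. Per the submitters' processing notes, HISAT2, Picard and DESeq were also used; no version is listed. The column names carry a mark of duplicate removal, which can cap abundant genes; Slc38a2 held up to 1.10 reads per exonic base. Gene lengths are those deposited in the same table, per the file headers. The header names 7 alignment files, and 3 columns are present. The third column is named for CDDO alone and was read as the CDDO+TPA sample, since no other label mentions CDDO.

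Scaling used TMM (edgeR 4.0.16). Log2 CPM used a prior count of 2, and genes with at least 1 CPM in 1 library entered. Alternatives were 3 other scalings (DESeq2 1.42.0 size factors among them), prior counts, filters, the 1.5-fold rule and an assumed variation between cultures. Ratios of CPM carry exact conditional binomial 95% intervals. The interval code was tested on simulated data. With 1 library per group no count model has residual degrees of freedom. Genes named in full are those past the size rule with at least 5 CPM and the highest per kilobase of each family or class; the other members, named to complete a class, and the limit of 100 CPM were chosen after their values were seen, and the members and lists with earlier results of these data known. Promoters came from RefSeq (GRCm38.p6). List symbols Castor1 and Castor2 were matched to Gatsl3 and Gatsl2 by RefSeq synonyms. The lysosomal carrier gene Pqlc2, listed under both its names, was counted once.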

Additional observations from a re-analysis of the deposited data

How the results depend on the processing

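Under a filter of 10 CPM on the mean, fewer genes entered: 1 was past the rule upward and 1 downward for TPA against control, 0 and 0 for CDDO+TPA against TPA, and 2 and 1 for CDDO+TPA against control. At 1.5-fold, 8 were lower in the first comparison, 4 higher and 5 lower in the second, and 9 lower in the third. At 1.5-fold with a mean of at least 100 CPM, an alternative added after seeing the data, the counts were 0 higher and 5 lower, 0 and 1, and 0 and 5. Intervals widened for a coefficient of variation of 0.4, an assumption about cultures, left 0 lower in the first comparison (Slc6a15 and Slc7a3 remained higher), 0 and 0 in the second, and 2 higher (Slc1a2 and Slc6a19) and 1 lower (Slc7a13) in the third, each with few reads, without Slc6a15, Slc6a12, Slc43a2, Slc7a2 and Slc6a20b. Scaling by total counts, upper quartile or DESeq2 size factors, prior counts of 0.5 and 5, and no filter kept each count within 1.5 times and reversed no gene past the rule; the small difference of Slc38a2 between TPA and control changed sign with total counts (log2 fold change 0.0050) and upper quartile, and the median of the measured genes in that comparison moved from -0.08 to -0.02 with either. No share over all genes is given for the 10 CPM filter or for the widened intervals. Whether the member counts under them differ from such a share cannot be told. The 28306 to 37716 reads over these genes leave those under 5 CPM with wide intervals. No paired analysis was possible because each group has 1 library.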

Other observations

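Carriers outside these families and enzymes that break amino acids down held a few larger differences. Slc25a38, the mitochondrial glycine importer that feeds haem synthesis, had 163, 572 and 191 reads in control, TPA and CDDO+TPA, so that TPA was the high library, 3.53-fold above control (95% counting interval 2.96 to 4.23) and 2.97-fold above CDDO+TPA (2.51 to 3.51). Mfsd12, which brings cysteine into lysosomes and melanosomes, had 70, 95 and 152 reads, 2.20-fold higher with CDDO+TPA than in control (1.65 to 2.97). These were the members past the size rule among 11 measured genes of that list, 1 higher in TPA against control beside 9.57% of all genes, 1 lower in CDDO+TPA against TPA beside 7.78%, and 1 higher in CDDO+TPA against control beside 8.02%. Of 14 measured genes listed for the breakdown of glutamine, arginine, proline and branched-chain amino acids, 2 were higher and 1 lower in TPA against control, beside 9.57% and 5.91%. Between CDDO+TPA and TPA these counts were 2 and 1, beside 7.87% and 7.78%, and between CDDO+TPA and control 2 and 0, beside 8.02% and 3.37%. Prodh, the first enzyme of proline breakdown, had 198, 59 and 144 reads, low with TPA by 3.34-fold (2.48 to 4.54) and 2.46-fold higher once CDDO was added (1.81 to 3.39). Glul, which makes glutamine instead of breaking it down, had 205, 556 and 420 reads, with control the low library, 2.73-fold below TPA (2.32 to 3.22) and 2.08-fold below CDDO+TPA (1.76 to 2.47). The others past the rule, named after their values were seen, were the arginase gene Arg1, with 5, 23 and 1 reads, and the inducible nitric oxide synthase gene Nos2, with 1, 0 and 15 reads. List medians of log2 fold change were -0.26, 0.29 and 0.01 for breakdown and -0.11, 0.09 and -0.20 for the other carriers.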
